A study of Mus musculus with 6 samples.

Results

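The genes described here make, desaturate, bind and export lipids: 35 genes of cholesterol and fatty acid synthesis, taken by name from a fixed list and not by any measured value. Of these, 34 had a probe set with a single gene symbol, among 19937 genes measured. Acsl3, an acyl-CoA synthetase gene, lies on a probe set shared with Utp14b and has no value of its own. They were read in mouse CD4+ T cells of the B6 strain in 2 groups, 4 cultures restimulated with anti-CD3 and 2 with anti-CD3 and anti-ICOS together. In both groups naive splenic cells had been activated with anti-CD3 and anti-CD28 for 2 days, rested overnight, coated for 20 min with the restimulating antibody and cross-linked with goat anti-hamster antibody for 8 h. Each culture was hybridised to an Affymetrix Mouse Gene 1.0 ST array, and the titles number the cultures as biological replicates. The sources used here do not give the age or number of the animals, so a p-value below reflects spread among arrays that may share animals.

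Cholesterol is built from acetyl-CoA through mevalonate and squalene, and fatty acids are built from the same acetyl-CoA through malonyl-CoA. Both branches are driven by the sterol regulatory element binding proteins SREBP-1 and SREBP-2, membrane-bound transcription factors that the INSIG proteins hold in the endoplasmic reticulum when sterols are plentiful. For sterols, the nuclear receptor LXR acts in the other direction, inducing the sterol exporters when oxysterols accumulate. T cells entering division draw on both branches to build membrane, and activation through the antigen receptor is known to raise SREBP activity.

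Values are log2(intensity + 16), referred to below as the log2 scale, and a difference is the anti-ICOS group minus the anti-CD3 group. The arrays had median intensities from 109 to 114. Anti-CD3 replicate 4 stood apart from replicates 1 to 3 and lay nearer to the mean of the anti-ICOS arrays in 78.1% of all genes, so the differences that its removal turns into calls are also given without it. Of 11 measured T cell markers, 0 lay below the median gene on all arrays, and Cd4 read 12.05 to 12.45 with anti-CD3. Of 9 measured B cell markers, 0 lay below the median gene on all arrays either, among them Cd79a at 12.18 to 12.35 with anti-CD3. The summed intensity of 19 proliferation genes was 36050 to 39150 in anti-CD3 replicates 1 to 3, 20230 in replicate 4, and 18690 and 19810 with anti-ICOS. In a bulk culture, fewer cells of a type and less RNA per cell cannot be told apart.

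A single member, Fabp5, was called between the groups with all 6 arrays. With all 6 arrays, 1 of 34 members (2.94%) passed limma's test at an adjusted p of 0.05 over all genes, where 0.271% of all genes passed. No member was lower by that test. Without adjustment, 3 members were higher and 4 lower at p under 0.05, as were 1245 and 1109 of the 19937 genes. The median difference was -0.053 over the 34 members, against -0.031 over all genes. In 4 members (11.8%, against 8.51% of all genes) the anti-ICOS values exceeded every anti-CD3 value, and in 5 (14.7%, against 14.7% of all genes) they were under every one. These shares of separated members are near those of all genes. The two-sided exact permutation test used here doubles the smaller tail, so for a single gene it cannot go below 0.133 with 4 arrays against 2.

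**Figure D1:**
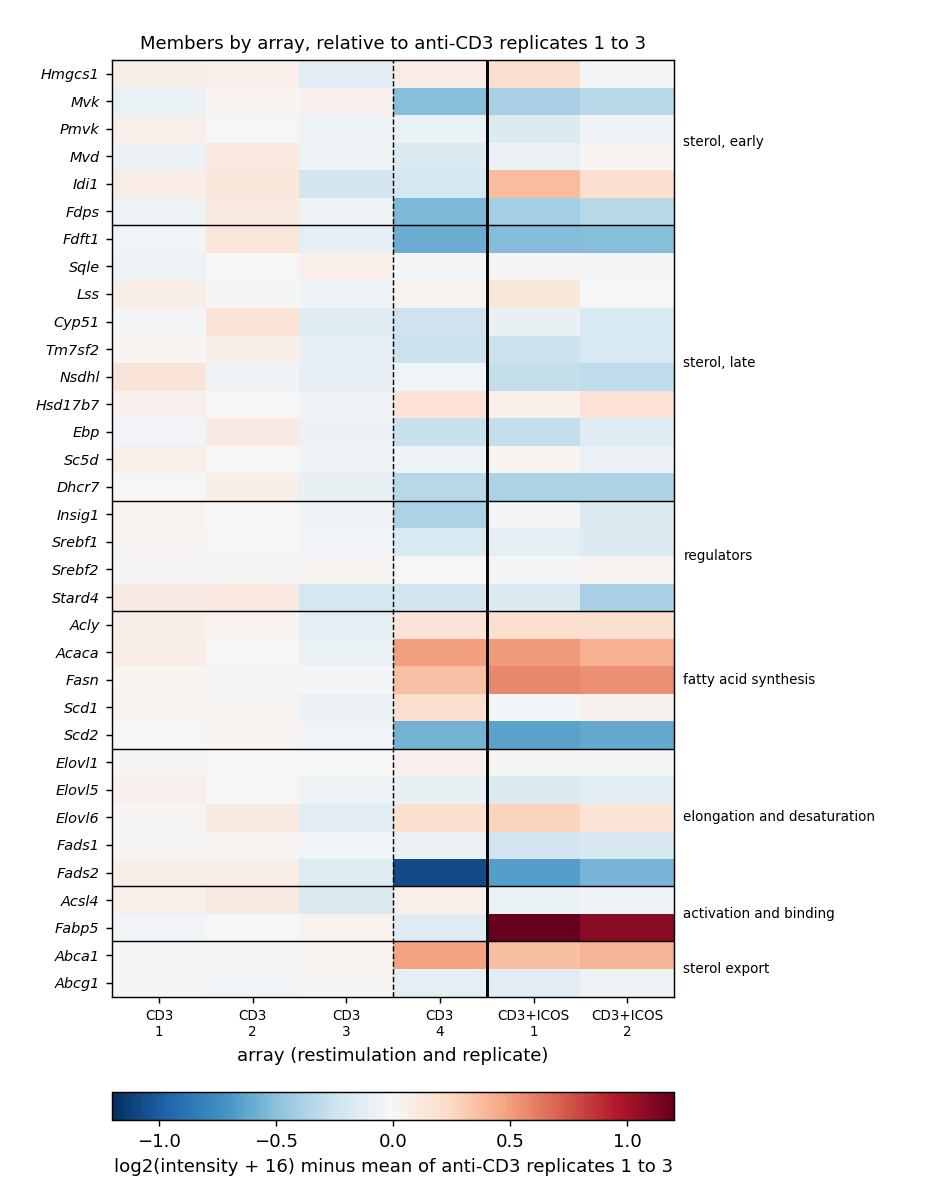
Level of each of the 34 measured members on each of the 6 arrays, as log2(intensity + 16) minus the mean of anti-CD3 replicates 1 to 3 (colour scale from -1.2 to 1.2); the dashed line sets anti-CD3 replicate 4 apart and the solid line the anti-ICOS arrays. Fabp5 is high on the anti-ICOS arrays and not in replicate 4 (-0.16), while Fasn, Acaca and Abca1 are high, and Scd2, Fdft1 and Fads2 low, on replicate 4 and on the anti-ICOS arrays.

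Without anti-CD3 replicate 4 the count of members called was 12 of 34 (35.3%), against 29.7% of all genes, so the share was near the background. Of these 12, 4 were higher, in a direction where 17.1% of all genes passed, and 8 were lower, in a direction where 12.7% passed. When anti-ICOS was set against replicate 4 alone, with the other anti-CD3 arrays kept in the fit for the spread, Fabp5 was the 1 member called (0.176% of all genes). Replicate 4 lay nearer to the anti-ICOS mean than to the mean of replicates 1 to 3 in 28 of 34 members (82.4%, against 78.1% of all genes). The members for which it did not were Idi1, Nsdhl, Elovl1, Fads1, Acsl4 and Fabp5.

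Fabp5 encodes the epidermal fatty acid binding protein, which carries long-chain fatty acids through the cytosol and into the nucleus. It read 8.11, 8.14, 8.19 and 7.99 in anti-CD3 replicates 1 to 4, and 9.34 and 9.23 with anti-ICOS. The groups did not overlap, and replicate 4 was the lowest of the anti-CD3 arrays, on the side away from anti-ICOS. Group means were 8.11 ± 0.0859 (SD, n = 4) with anti-CD3 and 9.29 ± 0.0787 (SD, n = 2) with anti-ICOS. Fabp5 thus rose 2.27-fold, by 1.18 ± 0.0832 (SE, limma adjusted p = 0.0033). It ranked 11 of 19937 genes by p and 68 by the size of the rise.

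The rise in Fabp5 passed the test with and without replicate 4. It was 1.14 ± 0.0675 without replicate 4 (limma adjusted p = 7.55e-05) and 1.30 ± 0.0906 against replicate 4 alone (limma adjusted p = 0.00308). A second, dimmer probe set of the gene read 7.22, 7.39, 6.98 and 7.26 with anti-CD3, and 8.42 and 8.31 with anti-ICOS. Its difference of 1.16 ± 0.118 also passed when every probe set was tested (limma adjusted p = 0.018, against 0.00414 for the brighter one). The mouse genome holds processed copies of Fabp5, and the sources used here do not say which copy each probe set matches, so the source of the signal is uncertain.

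Summed markers of several other cell types were higher with anti-ICOS than in anti-CD3 replicates 1 to 3. Replicate 4, the lowest array for Fabp5, lay above replicates 1 to 3 for dendritic, monocyte and natural killer markers. It lay below them for mast cell, neutrophil and platelet markers. The part of these cell types in the rise of Fabp5 was not tested. The summed intensity of 12 dendritic cell markers was 1438 to 1462 in anti-CD3 replicates 1 to 3, 1626 in replicate 4, and 2127 and 2124 with anti-ICOS. Of these 12, 7 lay below the median gene on all arrays, and Flt3, a cytokine receptor of dendritic cell precursors, was the one called. Before adjustment 5 dendritic markers were higher at p under 0.05, and Xcr1, at -0.19, was lower. Flt3 read 6.86, 6.86, 6.89 and 7.0 with anti-CD3, and 8.05 and 8.26 with anti-ICOS, a difference of 1.26 ± 0.087. For 14 monocyte and macrophage markers the sum was 1353 to 1429 in replicates 1 to 3, 1808 in replicate 4, and 1845 and 2612 with anti-ICOS, with 7 of 14 below the median gene on all arrays and 0 called (5 higher and 0 lower at an unadjusted p under 0.05). Mast cell and basophil markers (8 genes) summed to 483 to 537, 459 in replicate 4, and 679 and 872, with 6 of 8 below the median gene on all arrays. Of these 8, 0 were called, with 4 higher and 0 lower at an unadjusted p under 0.05. Neutrophil markers (11 genes) summed to 596 to 697, 549 in replicate 4, and 730 and 1548, with 8 of 11 below the median gene on all arrays. Of these 11, 0 were called, with 4 higher and 0 lower at an unadjusted p under 0.05. Their sum was unequal between the anti-ICOS arrays, on which Mpo read 7.27 and 9.12. A difference below 0 was found for 3 of the 11. Natural killer cell markers (8 genes, 4 below the median gene on all arrays) summed to 6111 to 6423 in replicates 1 to 3. The sum was 8024 in replicate 4, and 7840 and 7929 with anti-ICOS. Of these 8, 0 were called, with 2 higher and 0 lower at an unadjusted p under 0.05. Most of the sum came from Nkg7 (12.10 and 12.15 with anti-ICOS) and Klrd1 (11.21 and 11.20). Ncr1 read 6.34 and 6.54 there. In replicate 4 Nkg7, Klrd1 and Ncr1 read 12.11, 11.31 and 5.64. Platelet and erythroid markers (4 genes, 3 below the median gene on all arrays) summed to 266 to 301, 242 in replicate 4, and 311 and 438. Of these 4, 0 were called, with 2 higher and 0 lower at an unadjusted p under 0.05. The 11 T cell markers summed to 35170 to 37620 in replicates 1 to 3, 34410 in replicate 4, and 32580 and 33580 with anti-ICOS, with 0 called (1 higher and 3 lower at an unadjusted p under 0.05). The 9 B cell markers summed to 19760 to 22190 in replicates 1 to 3, 23470 in replicate 4, and 21300 and 23450 with anti-ICOS, so the groups overlapped. The 2 CD8 T cell markers summed to 3859 to 4128, 4704 in replicate 4, and 4352 and 4509. In both lists 0 were called.

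**Figure D2:**
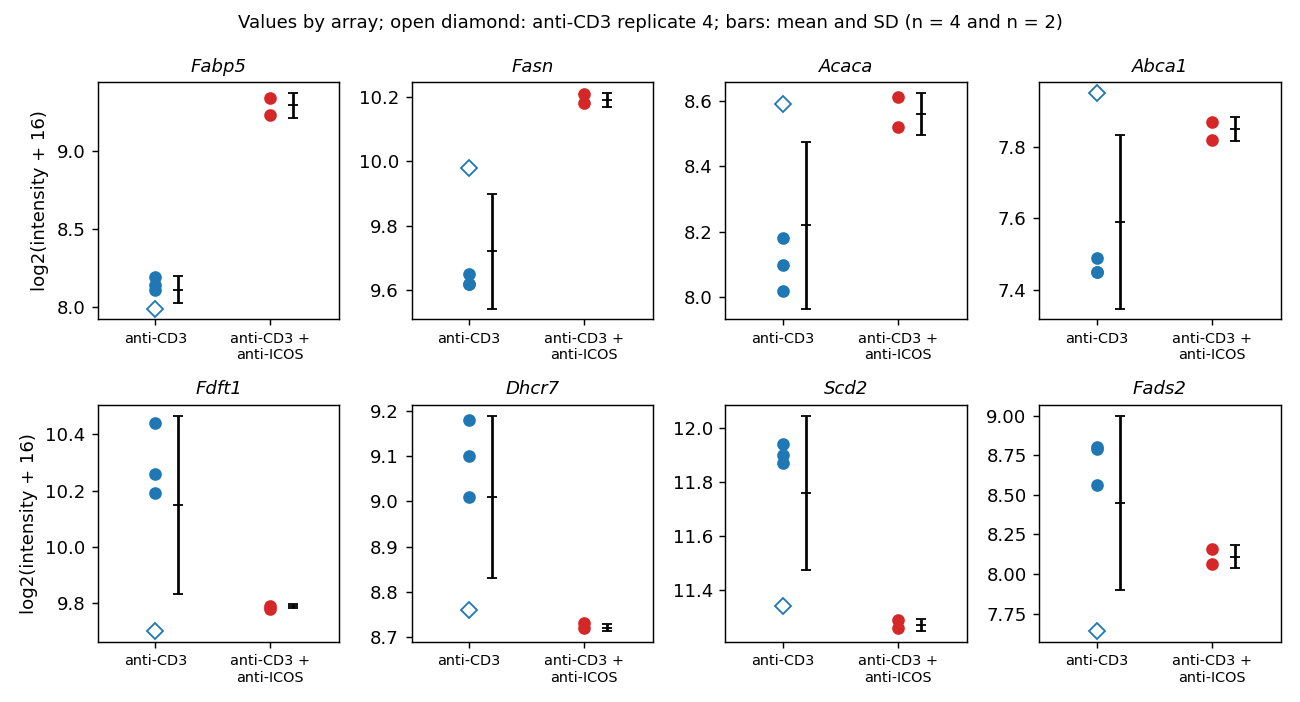
Log2(intensity + 16) of 8 members on each array (filled circles, with anti-CD3 replicate 4 as an open diamond), with mean and SD beside the points (n = 4 anti-CD3, n = 2 anti-CD3 plus anti-ICOS); the vertical axes do not start at 0 and differ between genes. Fabp5 separates the groups with replicate 4 at 7.99, while for the other 7 genes replicate 4 lies apart from replicates 1 to 3, toward or beyond the anti-ICOS values.

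Acly, Acaca and Fasn, which turn citrate into palmitate, had higher means with anti-ICOS, and none of them passed the test with all 6 arrays. Fasn, the fatty acid synthase itself, read 9.65, 9.62 and 9.62 in anti-CD3 replicates 1 to 3, 9.98 in replicate 4, and 10.21 and 10.18 with anti-ICOS. Its groups did not overlap, and replicate 4 lay between them. The difference was 0.47 ± 0.118 (limma adjusted p = 0.337). Without replicate 4 Fasn was called, 1.48-fold higher at 0.56 ± 0.0605 (limma adjusted p = 0.000716), and against replicate 4 alone it differed by 0.21 ± 0.0811 (limma adjusted p = 0.899).

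Acaca, acetyl-CoA carboxylase 1, commits acetyl-CoA to fatty acids by making malonyl-CoA. It read 8.18, 8.10 and 8.02 in replicates 1 to 3, 8.59 in replicate 4, and 8.61 and 8.52 with anti-ICOS. Replicate 4 lay among the anti-ICOS values, so the groups overlapped. The difference was 0.34 ± 0.157 with all arrays (limma adjusted p = 0.423), 0.46 ± 0.0725 without replicate 4 (limma adjusted p = 0.00351) and -0.03 ± 0.0973 against replicate 4 alone. A dimmer probe set of Acaca gave 0.49 ± 0.200, in the same direction. Acly, ATP citrate lyase, supplies cytosolic acetyl-CoA to both branches. It read 10.08, 10.05, 9.89 and 10.16 with anti-CD3, and 10.20 and 10.20 with anti-ICOS, without overlap, and differed by 0.15 ± 0.0899 (limma adjusted p = 0.442).

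The stearoyl-CoA desaturases Scd1 and Scd2, which introduce the double bond of oleate, gave unlike values. Scd2 read 11.90, 11.94 and 11.87 in anti-CD3 replicates 1 to 3, 11.34 in replicate 4, and 11.26 and 11.29 with anti-ICOS. All 3 of those lower arrays were close to one another, and replicate 4 stayed just above both anti-ICOS arrays. The difference was -0.49 ± 0.173 (limma adjusted p = 0.417) with all arrays and -0.63 ± 0.0619 without replicate 4 (limma adjusted p = 0.000474), a ratio of 0.645. Scd1 read 11.14, 11.14, 11.04 and 11.31 with anti-CD3, and 11.09 and 11.16 with anti-ICOS. It differed by -0.04, with a 95% confidence interval from -0.25 to 0.18, and the difference between these paralogs was itself not tested.

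Of 5 genes of chain elongation and desaturation 0 were called with all arrays, and before adjustment only Fads1 of the 5 had p under 0.05, on the lower side. Fads2, the delta-6 desaturase of polyunsaturated fatty acids, varied most between anti-CD3 arrays, at 8.79, 8.80 and 8.56 in replicates 1 to 3 and 7.64 in replicate 4. With anti-ICOS it read 8.06 and 8.16, between those values. Its difference was therefore -0.61 ± 0.0895 without replicate 4 (limma adjusted p = 0.00275) and 0.47 ± 0.120 against replicate 4 alone (limma adjusted p = 0.431), opposite in sign. With all arrays it was -0.34 ± 0.317.

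Fads1, the delta-5 desaturase that acts after Fads2, read 9.42, 9.43, 9.38 and 9.33 with anti-CD3, and 9.18 and 9.22 with anti-ICOS. Here replicate 4 lay with its own group and the groups did not overlap. The difference was -0.19 ± 0.0686 (limma adjusted p = 0.417), and without replicate 4 it was called at -0.21 ± 0.0617 (limma adjusted p = 0.0359). Elovl5, an elongase of polyunsaturated chains, read 11.62, 11.57, 11.51 and 11.48 against 11.40 and 11.43, a difference of -0.13 ± 0.0722. Elovl6, which extends palmitate to stearate, differed by 0.17 ± 0.101, and Elovl1, an elongase of very long chains, by -0.01 with a 95% confidence interval from -0.17 to 0.14. Acsl4, which activates arachidonate to its CoA ester, differed by -0.08 (95% confidence interval from -0.31 to 0.14).

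Across the branch, the 12 measured fatty acid genes had a median difference of -0.025, with Fabp5 the 1 called. Without replicate 4 the median was 0.0077 and 6 were called, 3 higher (Fasn, Acaca and Fabp5) and 3 lower (Scd2, Fads1 and Fads2), in a fit that called 29.7% of all genes (17.1% higher, 12.7% lower). The branch median thus averages over Fasn and Acaca on one side and 3 desaturase genes on the other.

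**Figure D3:**
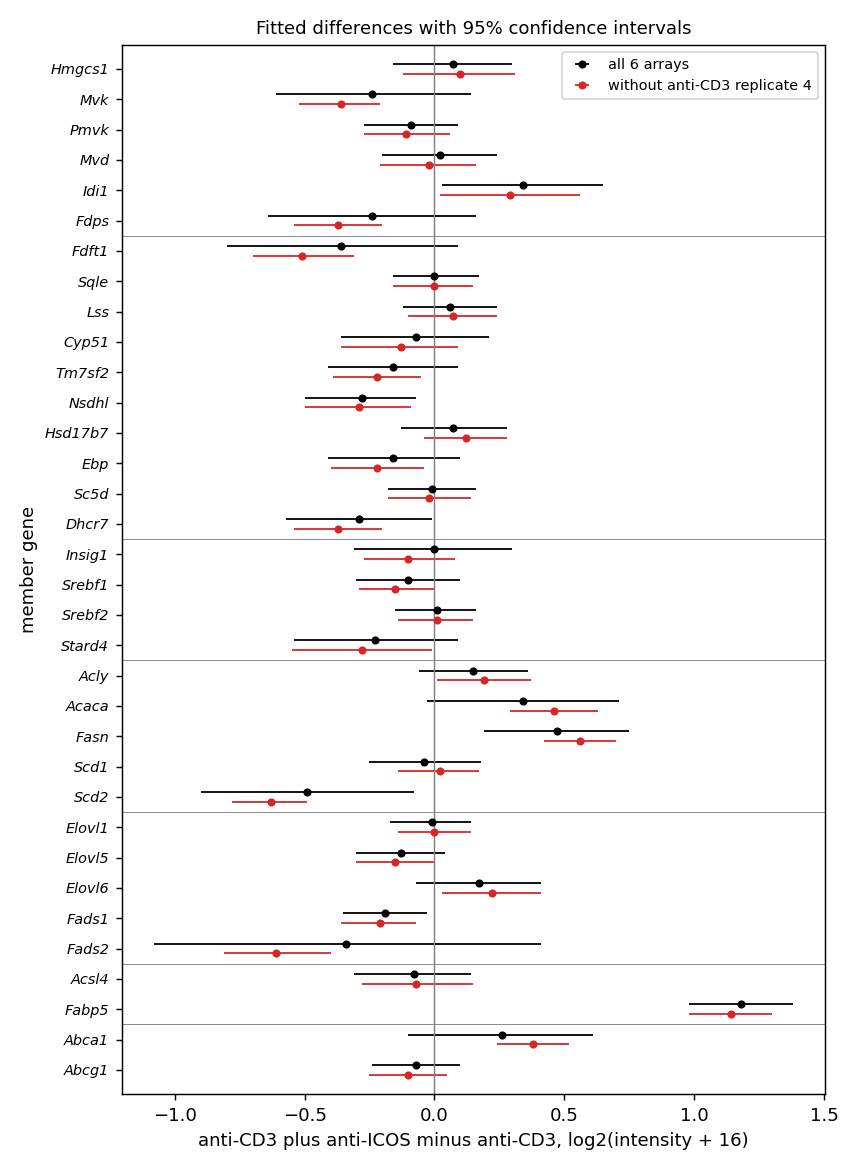
Fitted difference of each member, the anti-ICOS group minus the anti-CD3 group, on log2(intensity + 16), with its 95% confidence interval from limma; black, all 6 arrays; red, without anti-CD3 replicate 4; lines separate the roles. Fabp5 lies apart at 1.18 and 1.14, and the intervals of Fads2, Scd2, Fdft1 and Acaca narrow when replicate 4 is left out.

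In the sterol branch 0 of 16 genes passed the test with all 6 arrays, against 0.271% of all genes. Without adjustment, 1 (Idi1) was higher and 2 (Nsdhl and Dhcr7) were lower at p under 0.05. The median difference of the 16 was -0.08, and -0.18 with quantile normalization. Without replicate 4 it was -0.12 and 5 of 16 were called, all lower: Mvk, Fdps, Fdft1, Nsdhl and Dhcr7. That is 31.2% of the branch, against 29.7% of all genes called in that fit and 12.7% called lower. With anti-CD3 replicates 1 to 3 as the baseline, the 16 genes had a median of -0.19 in replicate 4, and of -0.12 and -0.11 on the anti-ICOS arrays. The proliferation genes lay lower on the same 3 arrays, as given above: 0 of 19 were called with all arrays (17 lower at an unadjusted p under 0.05) and 19 of 19 were called lower without replicate 4. Their part in the sterol and fatty acid values was not tested.

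Promoter sequence was examined because both branches are textbook SREBP targets, and SREBP binds beside the factor NF-Y. RefSeq promoters of build GRCm38.p6, from 250 bases before to 50 after the start, were found for 26 of 35 members, Fabp5, Fdft1, Fdps and Scd2 not among them. The NF-Y box CCAAT, on either strand, was in 21 of 26 (80.8%), against 41.1% of 27025 genes, and in 13 of 13 sterol genes and 5 of 9 fatty acid genes with an entry. The core of the sterol regulatory element, CACCCCAC, was in 1 of 26 (3.3% of all genes) and the E-box CACGTG in 6 of 26 (8.09% of all genes). The LXR repeat, 2 copies of AGGTCA in the same direction with 4 bases between, was in 0 of 26 (0.0148% of all genes). Only exact strings were matched, so sites that vary from them were missed. The LXR string was in 4 of 27025 genes, so its count of 0 in 26 members carries no information. These windows are short, and a match says nothing about binding in these cells.

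The 250 bases before the start are shown for Hmgcs1, whose level differed little, for Mvk, which encodes mevalonate kinase and was lower without replicate 4, and for Fasn, higher without replicate 4. They lie at chr13:119690101-119690350 on the plus strand, chr5:114444019-114444268 on the plus strand and chr11:120824548-120824797 on the minus strand. Capitals mark CCAAT or its reverse complement ATTGG and, in Hmgcs1 at 136 bases before the start, the sterol element core.
Hmgcs1: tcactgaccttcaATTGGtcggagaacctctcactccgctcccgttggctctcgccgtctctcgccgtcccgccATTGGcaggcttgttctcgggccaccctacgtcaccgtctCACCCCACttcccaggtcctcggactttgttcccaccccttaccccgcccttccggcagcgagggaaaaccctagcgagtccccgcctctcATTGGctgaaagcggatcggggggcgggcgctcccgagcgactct
Mvk: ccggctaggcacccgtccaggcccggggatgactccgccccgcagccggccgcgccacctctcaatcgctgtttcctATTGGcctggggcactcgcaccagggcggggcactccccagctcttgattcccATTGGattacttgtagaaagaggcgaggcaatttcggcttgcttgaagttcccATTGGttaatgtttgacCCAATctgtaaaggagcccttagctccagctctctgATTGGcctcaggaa
Fasn: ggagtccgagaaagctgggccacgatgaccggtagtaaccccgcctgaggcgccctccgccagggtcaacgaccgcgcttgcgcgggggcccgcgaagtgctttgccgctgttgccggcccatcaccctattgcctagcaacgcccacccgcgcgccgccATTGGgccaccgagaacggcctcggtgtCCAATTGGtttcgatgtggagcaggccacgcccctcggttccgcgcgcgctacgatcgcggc
Hmgcs1 holds 3 NF-Y boxes in this stretch, Mvk 5 and Fasn 3, of which those at 62 and 59 bases before the start of Fasn overlap. Fasn was called higher and Mvk lower without replicate 4, but neither was called with all arrays (limma adjusted p = 0.337 and 0.462). Whether the number of boxes goes with the level of a gene was not tested.

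Among the early enzymes, Hmgcs1, which makes HMG-CoA, read 9.32, 9.31, 9.12 and 9.34 with anti-CD3, and 9.45 and 9.24 with anti-ICOS. The arrays of both groups interleaved, and the difference was 0.07 with a 95% confidence interval from -0.16 to 0.30. Mvk, mevalonate kinase, read 8.78, 8.88 and 8.91 in replicates 1 to 3, 8.35 in replicate 4, and 8.47 and 8.52 with anti-ICOS. It differed by -0.24 ± 0.159 with all arrays and by -0.36 ± 0.0684 without replicate 4 (limma adjusted p = 0.462 and 0.00732). Replicate 4 was below the anti-ICOS arrays, so against it alone the sign turned, at 0.14 ± 0.0918.

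Pmvk and Mvd, the phosphomevalonate kinase and the diphosphomevalonate decarboxylase that follow Mvk, differed by -0.09 ± 0.0765 and 0.02 ± 0.0947. Fdps, which makes farnesyl diphosphate, read 9.53, 9.69 and 9.54 in replicates 1 to 3, 9.05 in replicate 4, and 9.18 and 9.25 with anti-ICOS. Its pattern was that of Mvk, with differences of -0.24 ± 0.169 over all arrays, -0.37 ± 0.074 without replicate 4 (limma adjusted p = 0.00928) and 0.17 ± 0.0993 against replicate 4 alone.

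Idi1, isopentenyl diphosphate isomerase, was the sterol gene whose anti-ICOS values exceeded every anti-CD3 value, but its probe sets disagreed. The brighter read 8.67, 8.72, 8.36 and 8.37 with anti-CD3, and 8.95 and 8.78 with anti-ICOS, a difference of 0.34 ± 0.13 (limma adjusted p = 0.417). The dimmer read 8.72, 8.61, 8.60 and 8.01, and 8.66 and 8.37, a difference of 0.03 ± 0.204, with the groups overlapping. Both probe sets list the same transcripts in the platform annotation.

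**Figure D4:**
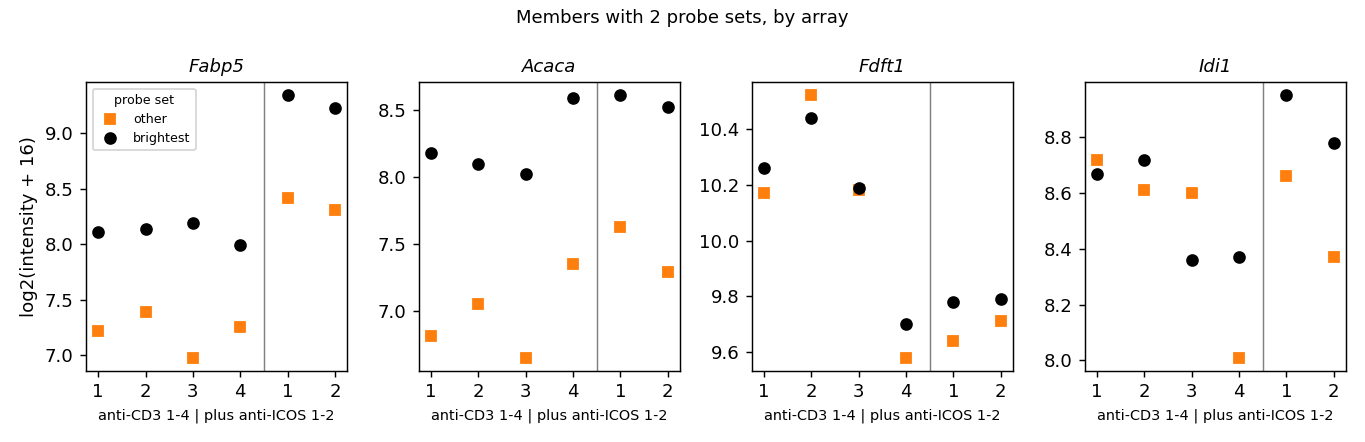
Log2(intensity + 16) of both probe sets of the 4 members that have 2, on anti-CD3 replicates 1 to 4 (left of the line) and anti-CD3 plus anti-ICOS replicates 1 and 2 (right); black circles, the brightest probe set, which was used; orange squares, the other. The probe sets of Fabp5, Acaca and Fdft1 move alike, with differences of 1.18 and 1.16, 0.34 and 0.49, and -0.36 and -0.44, while those of Idi1 differ, at 0.34 and 0.03.

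Past farnesyl diphosphate, Fdft1, the squalene synthase that commits carbon to sterols, was the lowest relative to anti-CD3. It read 10.26, 10.44 and 10.19 in anti-CD3 replicates 1 to 3, 9.70 in replicate 4, and 9.78 and 9.79 with anti-ICOS. Replicate 4 was the lowest array of all. Fdft1 differed by -0.36 ± 0.189 over all arrays (limma adjusted p = 0.428), by -0.51 ± 0.0847 without replicate 4 (limma adjusted p = 0.00452), a ratio of 0.703, and by 0.09 ± 0.114 against replicate 4 alone. Its dimmer probe set gave -0.44 ± 0.229.

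Several enzymes that close and trim the sterol rings differed little. Sqle, squalene epoxidase, read 8.77, 8.84, 8.89 and 8.81 with anti-CD3, and 8.85 and 8.81 with anti-ICOS, and its difference had a 95% confidence interval from -0.16 to 0.17. Lss, lanosterol synthase, differed by 0.06 (interval from -0.12 to 0.24) and Cyp51, the lanosterol demethylase, by -0.07 (interval from -0.36 to 0.21). Hsd17b7, a sterol ketoreductase, differed by 0.07 ± 0.0862 and Sc5d, the lathosterol desaturase, by -0.01 ± 0.0721. For these 5 enzymes the arrays of the groups overlapped.

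Dhcr7, the last reductase before cholesterol, read 9.10, 9.18 and 9.01 in replicates 1 to 3, 8.76 in replicate 4, and 8.72 and 8.73 with anti-ICOS. The groups did not overlap, with replicate 4 close to the anti-ICOS arrays. It differed by -0.29 ± 0.119 (limma adjusted p = 0.421), and by -0.37 ± 0.0716 without replicate 4 (limma adjusted p = 0.00825). Nsdhl, which removes the C4 carboxyl group, was, with Idi1, a sterol gene for which replicate 4 lay nearer to the other anti-CD3 arrays. It read 9.58, 9.38, 9.32 and 9.39 with anti-CD3, and 9.14 and 9.12 with anti-ICOS. The difference was -0.28 ± 0.0902 with all arrays (limma adjusted p = 0.414), -0.29 ± 0.088 without replicate 4 (limma adjusted p = 0.0411) and -0.26 ± 0.118 against replicate 4 alone. Tm7sf2 and Ebp, a sterol reductase and a sterol isomerase, differed by -0.16 ± 0.104 and -0.16 ± 0.11.

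The regulators of the pathway were not called with all 6 arrays, without replicate 4 or against replicate 4 alone. With arrays weighted by their quality Srebf1 (-0.166, limma adjusted p = 0.0204) and Stard4 (-0.352, limma adjusted p = 0.00729) were called. That fit called 9413 of 19937 genes, 4870 of them lower. Srebf2, which encodes SREBP-2, was the steadiest, reading 11.20, 11.19, 11.25 and 11.22 with anti-CD3, and 11.19 and 11.25 with anti-ICOS. Its difference of 0.01 had a 95% confidence interval from -0.15 to 0.16. Srebf1, which encodes SREBP-1 and lies more on the fatty acid side, read 9.39, 9.36, 9.32 and 9.17, and 9.24 and 9.19, a difference of -0.10 ± 0.0842. Insig1, itself an SREBP target, read 9.44, 9.40 and 9.35 in replicates 1 to 3, 9.02 in replicate 4, and 9.39 and 9.22 with anti-ICOS. Replicate 4 was again the lowest array, and the difference was -0.00 over all arrays (interval from -0.31 to 0.30). Against replicate 4 alone Insig1 differed by 0.28 ± 0.0998 (limma adjusted p = 0.817). Stard4, a cytosolic sterol carrier, differed by -0.23 ± 0.133.

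The exporters Abca1 and Abcg1, which pass cholesterol to lipoproteins and are LXR targets, gave unlike values. Abca1 read 7.45, 7.45 and 7.49 in anti-CD3 replicates 1 to 3, 7.95 in replicate 4, and 7.82 and 7.87 with anti-ICOS. It lay 0.26 ± 0.151 higher with all arrays (limma adjusted p = 0.437), 0.38 ± 0.0614 higher without replicate 4 (limma adjusted p = 0.00397) and at -0.10 ± 0.0824 against replicate 4 alone. Abcg1 read 10.22, 10.17, 10.22 and 10.09 with anti-CD3, and 10.07 and 10.14 with anti-ICOS, a difference of -0.07 ± 0.0737. The difference between the exporters was not tested.

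Genes of the same pathways outside the 35 gave no call with all 6 arrays, by limma over all genes. Of 19 other sterol genes measured, 0 were called with all arrays (1 higher and 0 lower at an unadjusted p under 0.05) and 4 (all higher; 21.1%, against 29.7% of all genes) without replicate 4, with a median difference of 0.032 over all arrays. The 3 of smallest p were Stard5, a sterol carrier, Msmo1, the sterol C4 methyl oxidase, and Osbp, an oxysterol binding protein, with differences of 0.22 ± 0.0901, 0.21 ± 0.0957 and 0.28 ± 0.127. Without replicate 4 Stard5 (0.27, limma adjusted p = 0.0186) and Osbp (0.38, limma adjusted p = 0.00364) were called. Of 29 other fatty acid genes 0 were called with all arrays (2 higher and 2 lower at an unadjusted p under 0.05), and 4 higher and 2 lower without replicate 4 (20.7%, against 29.7% of all genes). Lpl, lipoprotein lipase, differed by 0.30 ± 0.0772, Oxsm, a mitochondrial ketoacyl synthase, by -0.22 ± 0.0826, and Acsl6 by -0.20 ± 0.0744. Lpl (0.30, limma adjusted p = 0.0214) and Oxsm (-0.26, limma adjusted p = 0.0251) were called without replicate 4.

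From a list of LXR genes and targets, 8 were measured beside the exporters, among them Nr1h5, which encodes a different nuclear receptor. Of these 8, 0 were called with all arrays (2 higher and 0 lower at an unadjusted p under 0.05). Without replicate 4, 4 were called (all higher), a share of 50% against 29.7% of all genes called and 17.1% called higher. Nr1h5 was not among those called. Apoe, the apolipoprotein that carries exported cholesterol, read 9.55, 9.54 and 9.38 in anti-CD3 replicates 1 to 3, 10.14 in replicate 4, and 10.24 and 11 with anti-ICOS. The anti-ICOS arrays differed from each other here, as did those of the monocyte and macrophage list. Apoe differed by 0.97 ± 0.264 (limma adjusted p = 0.389), Pltp, the phospholipid transfer protein gene, by 0.38 ± 0.115 and Mylip, which degrades the LDL receptor, by 0.49 ± 0.223. Without replicate 4 these were called, Apoe at 1.13, Pltp at 0.44 and Mylip at 0.68 (limma adjusted p = 0.00481, 0.0129 and 0.000915). Of 22 genes of fatty acid oxidation 0 were called with all arrays (0 higher and 2 lower at an unadjusted p under 0.05), and 2 higher and 2 lower without replicate 4 (18.2%, against 29.7% of all genes), with a median difference of -0.006 over all arrays. Hadh and Cpt2 differed by -0.34 ± 0.108 and -0.20 ± 0.0777, and Acadm, a dehydrogenase of medium chains, by 0.20 ± 0.0908. Without replicate 4 these were called as well, at -0.40, -0.23 and 0.25 (limma adjusted p = 0.0126, 0.033 and 0.0204).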

How the data were processed

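Total RNA (1 ug per culture, per the labels' protocols) from 6 cultures was biotin-labelled for 1-colour arrays. Groups came from the sample titles. The authors deposited a linear intensity for each probe set, from 7.23 to 22176; MAS5 is the tool named in the submitters' processing notes, and the sources used here do not state normalization or centring.

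Of 34760 probe sets, 21640 carried 1 symbol, 1321 several and 11799 none here. The brightest probe set of each gene was used (19937 genes), as log2(intensity + 16), which shrinks the differences of dim genes. Group differences were fitted over all genes with limma 3.58.1 under R 4.3.3 (lmFit, eBayes), two-sided, with Benjamini-Hochberg adjustment and 0.05 as the threshold; the steps were tested on simulated data. Intervals are 95% limma confidence intervals. Exact permutation tests used scipy 1.17.1. All measured members are named, and from each of 4 other pathway lists the 3 genes of smallest p. Members, gene lists and alternatives were chosen with earlier results of these data known. Alternatives were scaling, dim-gene filter, probe summary, offset, prior, array weights, replicate block, each array left out, and replicate 4 as the only reference; testing every probe set was added after seeing the data. Some genes of the lists have no single-symbol probe set here and were not used. Plots were drawn with matplotlib 3.10.9.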

Additional observations from a re-analysis of the deposited data

Results flagged for a closer look

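In 3 of 34 members the gap between anti-CD3 replicate 4 and the nearest other anti-CD3 array, divided by the range of the 4 arrays, exceeded Dixon's 95% critical value. Chance alone gives such a gap in about 1 of 20 groups. The share of all genes past this value was not computed. Replicate 4 lay nearer to the anti-ICOS mean than to that of replicates 1 to 3 in 78.1% of all genes. For Abca1 the ratio was 0.913, with replicate 4 at 7.95 on the log2 scale. For Fasn it was 0.91, with replicate 4 at 9.98. For Scd2 it was 0.888, with replicate 4 at 11.34. In each the array lay toward the anti-ICOS values.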

How the results depend on the processing

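Fabp5 was called under all 17 alternatives tried, with differences from 1.06 to 1.30 and limma adjusted p from 5.64e-06 to 0.0496, the last without anti-CD3 plus anti-ICOS replicate 1. With an anti-ICOS array left out that group is a lone sample, assumed to vary like the anti-CD3 arrays. With each array left out in turn its difference was 1.12 to 1.24. The count of members called was 19 with array weights (6 higher, 13 lower, with weights of 4.53 for anti-CD3 replicate 1 and 0.15 for replicate 4) and 1 to 12 with each array left out. The count over all genes was 54, 28 with an offset of 64, 9413 with array weights, 35 with replicate 4 as the only reference, and 16 to 5930 with each array left out (18, 16, 20 and 5930 without anti-CD3 replicates 1 to 4, 36 and 26 without anti-ICOS replicates 1 and 2). With the replicate number as a block, which leaves anti-CD3 replicates 3 and 4 out of the difference, 15 members (4 higher, 11 lower) and 6551 genes were called. Same-numbered arrays deviated together with correlations of -0.039 and 0.101 across genes. The deviations of the 2 anti-ICOS arrays from their mean are mirror images, so these correlations cannot decide whether the arrays were paired. The sample titles state no pairing, and the main fit used none.

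The sterol median was -0.179 with quantile normalization and 0.03 with replicate 4 as the only reference, and -0.12 to -0.044 with each array left out. The fatty acid median moved by less than the spread between arrays, and was -0.047 to 0.008 with each array left out. Against replicate 4 alone, 4 uncalled differences turned sign with both values more than 1 SE from 0: Mvk 0.14, Fdps 0.166, Fads2 0.472 and Abca1 -0.103. In a further 36 sign changes of single members, among 578 values, at least one of the values compared lay within 1 SE of 0; Insig1 was among them, at -0.00 with all arrays and 0.276 ± 0.0998 against replicate 4 alone. The regulator Stard4 was called with array weights (-0.352) and with the replicate block (-0.386), in fits that called 9413 and 6551 genes. Members gained a call 43 times, all with array weights, with the replicate block or without anti-CD3 replicate 4. Each of these fits gave replicate 4 little or no part in the difference. Fabp5 lost no call. In replicate 4 the fatty acid median relative to replicates 1 to 3 was 0.057, and -0.011 with quantile normalization, chosen after seeing the data for this value. The number of arrays limits the precision.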
